A study of Mus musculus with 18 samples.

Results

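Fanconi anemia (FA) is an inherited disease of failing bone marrow, cancer and sensitivity to agents that crosslink DNA. The genes described here encode its core complex (Fanca, Fancb, Fancc, Fance, Fancf, Fancg and Fancl), the DNA translocase Fancm that anchors this complex to chromatin, and the ID complex of Fancd2 and Fanci. The core complex is a ubiquitin ligase with Fancl as its catalytic subunit, and it attaches ubiquitin to Fancd2 and Fanci at stalled replication forks. The modified ID complex is clamped on DNA and brings in nucleases, translesion polymerases and homologous recombination proteins, and FA repair is therefore tied to DNA replication. Members were the probes whose accession carries 1 of these 10 symbols in RefSeq. Of the 10 genes, 9 had a probe and Fance had none, which left 11 probes of these genes among the 37246 probes on the array, where 19259 genes were named by RefSeq. Fancb and Fancc had 2 probes each, and the probe well above background on more arrays, or the brighter on a tie, stood for the gene.

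Expression was measured in mouse embryonic stem (ES) cells and in isogenic differentiated non-stem (ED) cells derived from them. ES cells were early passage primary cells grown with LIF, a cytokine that keeps them pluripotent, on gelatin and without feeders, and ED cells had been kept without LIF until, per the labels, they had lost stem cell markers. Both were either unirradiated (ES, ED) or exposed to 10 Gy of ionizing radiation (IR) with RNA taken after 15 min (ESRE for ES, EDRE for ED cells) or after 4 h (ESRL, EDRL), and no group carried a genetic change according to the labels. Each of the 6 groups had 3 arrays. The labels do not say whether replicates were separate cultures, so p-values measure only the spread between these samples, which may be technical. In bulk RNA, fewer cells of a type and less RNA per cell cannot be told apart.

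Levels are given as log2 signal relative to the 75th percentile of the same array, so that 0 is the level of that percentile and 1 unit is a 2-fold difference. A gene passed the test where its Benjamini-Hochberg adjusted p in limma, computed over all probes tested in the comparison, was under 0.05. The share of probes that the scanner software marked as well above background ran from 49.5% to 86.1% over the arrays. EDRE replicates 2 and 3 stood apart, with the 75th percentile at 875 and 1155 intensity units against 1952 to 4268 on the other arrays, and with 24.4% and 23.8% of their spots marked as outliers by the scanner software. Outlier spots were left out of the fits, and this left EDRE with 1 usable array for Fanca, Fancb, Fancd2, Fancf and Fanci. Arrays fell into 6 scans, and in none of them was a group scanned together with its control. ES markers fell in ED for 7 of 7 tested (log2 changes of -13.14 to -2.19). Of these Sox2 fell by 2.37 but was still well above background in ED cells, at 2.21, 2.31 and 2.43. Of 6 mesenchymal markers tested, 5 rose and Thy1 fell. All 5 endoderm and trophoblast markers tested fell, and of 4 neural markers only Pax6 passed the test, lower in ED.

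Promoter sequences are shown for Fancf, Fancg and Fanci, the 3 members that passed the test between ED and ES cells. RefSeq's table (GRCm38.p6) held a promoter for 9 of the 10 genes, all but Fancd2. The 250 bases before the start used in that table are printed on the gene's strand. They lie at chr7:51862268-51862517 (minus strand) for Fancf, chr4:43010302-43010551 (minus strand) for Fancg and chr7:79392088-79392337 (plus strand) for Fanci. The Fancg stretch lies inside the span that RefSeq gives for the whole gene (chr4:43002337-43010567), and the span of Fanci begins at 79392312, inside its stretch. Positions below are counted from the starts of the promoter table. Capitals mark matches to motifs that were searched on both strands.
Fancf: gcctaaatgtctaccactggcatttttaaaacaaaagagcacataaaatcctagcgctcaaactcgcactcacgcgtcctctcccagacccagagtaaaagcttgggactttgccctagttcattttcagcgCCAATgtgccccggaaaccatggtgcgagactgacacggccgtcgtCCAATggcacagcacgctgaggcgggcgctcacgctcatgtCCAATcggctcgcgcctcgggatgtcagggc
Fancg: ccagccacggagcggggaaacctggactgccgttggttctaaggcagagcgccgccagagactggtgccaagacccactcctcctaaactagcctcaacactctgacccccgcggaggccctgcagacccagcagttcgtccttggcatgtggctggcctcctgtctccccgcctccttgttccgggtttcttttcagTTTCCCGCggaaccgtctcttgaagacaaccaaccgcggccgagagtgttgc
Fanci: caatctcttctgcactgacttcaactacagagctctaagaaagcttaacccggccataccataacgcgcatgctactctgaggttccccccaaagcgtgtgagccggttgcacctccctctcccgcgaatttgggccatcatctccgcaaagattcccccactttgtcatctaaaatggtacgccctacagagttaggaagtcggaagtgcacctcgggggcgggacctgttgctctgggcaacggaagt

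Windows of 300 bases, reaching 50 bases past the start, were searched for an E2F motif (TTTGGCGC, TTTCCCGC, TTTGCCGC or TTTCGCGC), for the CHR motif (TTTGAA) and for the CCAAT box. E2F and CHR are elements of cell cycle genes, and the CCAAT box is bound by NF-Y. The CCAAT box was present in 6 of the 9 promoters (Fanca, Fancb, Fancc, Fance, Fancf and Fancm), against 37.4% of all 32851 promoters. Fancf held 3 copies in capitals above, starting at positions -118, -72 and -31. The E2F motif was present in Fancg alone of the 9, from -52 to -45, against 2.26% of all promoters. CHR was present in none of the 9, against 17.9% of all promoters, and in the Fanci promoter no searched motif was found. GC content was 55.6% for Fancf, 62.0% for Fancg and 54.4% for Fanci, against a median of 52.4% over all promoters. Matches to different motifs did not overlap. A match is a description of these letters and not a measured binding site.

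The first comparison asked how FA gene expression differs between unirradiated stem cells and their differentiated progeny. Fanci and Fancg were lower and Fancf was higher in ED than in ES cells, each by more than 2-fold. Of 9 members tested, 3 passed the test, 1 higher and 2 lower, where 51.9% of all probes tested passed (19.8% higher and 32.1% lower). The median change of the members was -0.39, within a range of -1.41 to 1.16, and the median of all probes was -0.19.

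Fanci encodes the partner that Fancd2 is clamped to DNA with. Its level was 3.38, 3.14 and 3.22 in the 3 ES replicates and 1.88, 1.81 and 1.83 in the 3 ED replicates. ES and ED did not overlap and stood far apart relative to the spread within either group. The mean fell from 3.25 ± 0.12 in ES to 1.84 ± 0.04 in ED cells (SD, n = 3 each), a log2 change of -1.41 ± 0.13 (SE), or 2.65-fold lower (limma adjusted p = 1.34e-06). Irradiated arrays stayed with their cell type, at 3.36 to 3.61 in ESRE, 3.28 to 3.48 in ESRL, 1.68 on the usable EDRE array and 1.50 to 1.60 in EDRL. In the order of mean levels, ESRE, ESRL and ES overlapped with each other. They lay above ED, EDRE and EDRL, and among these last the values of ED did not overlap with those of EDRL.

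Fancg is the core complex subunit that binds Fanca. Its level was -0.44, -0.42 and -1.02 in ES and -1.81, -1.88 and -2.27 in ED cells. ES replicate 3 was lower than the other ES arrays but still above every ED array. The change was -1.36 ± 0.33 (SE), or 2.57-fold lower in ED cells (limma adjusted p = 0.00265). ESRE arrays lay close together at -1.07 to -0.99, ESRL arrays were spread from -1.73 to -0.85 and EDRL arrays lay at -2.24 to -1.84. The order of mean levels was ES, ESRE, EDRE, ESRL, ED and EDRL, and each neighbouring pair in it overlapped except ESRL and ED. EDRE was the most scattered group, with -2.11 in replicate 1 against -0.66 and -0.85 in the dim replicates 2 and 3. With scan as a random block the Fancg change was again -1.36 but no longer passed (adjusted p = 0.151).

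Fancf is a core complex subunit that links other subunits together, and its gene has a single coding exon. Its level was 1.33, 1.01 and 1.14 in ES and 2.03, 2.40 and 2.51 in ED cells. Every ED array was above every ES array. The mean rose from 1.16 ± 0.16 to 2.31 ± 0.25 (SD, n = 3 each), a log2 change of 1.16 ± 0.16 (SE), or 2.23-fold higher (limma adjusted p = 4.52e-05). ESRE (1.29 to 1.33) and ESRL (0.90 to 1.21) lay with ES, whereas EDRL (2.31 to 2.44) and the usable EDRE array (2.54) lay with ED. With scan as a random block, Fancf (1.21, adjusted p = 0.028) and Fanci (-1.32, adjusted p = 0.00422) passed. All ES arrays were in 1 scan that held no other group, and all ED arrays were in another. Scan and cell type therefore cannot be told apart in this comparison of unirradiated cells, with or without the block. The scan of the ED arrays also held 1 irradiated array of ES cells, ESRE replicate 3. On it Fancf was at 1.29, and Fanci and Fancg lay within the ESRE ranges given above.

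**Figure D1:**
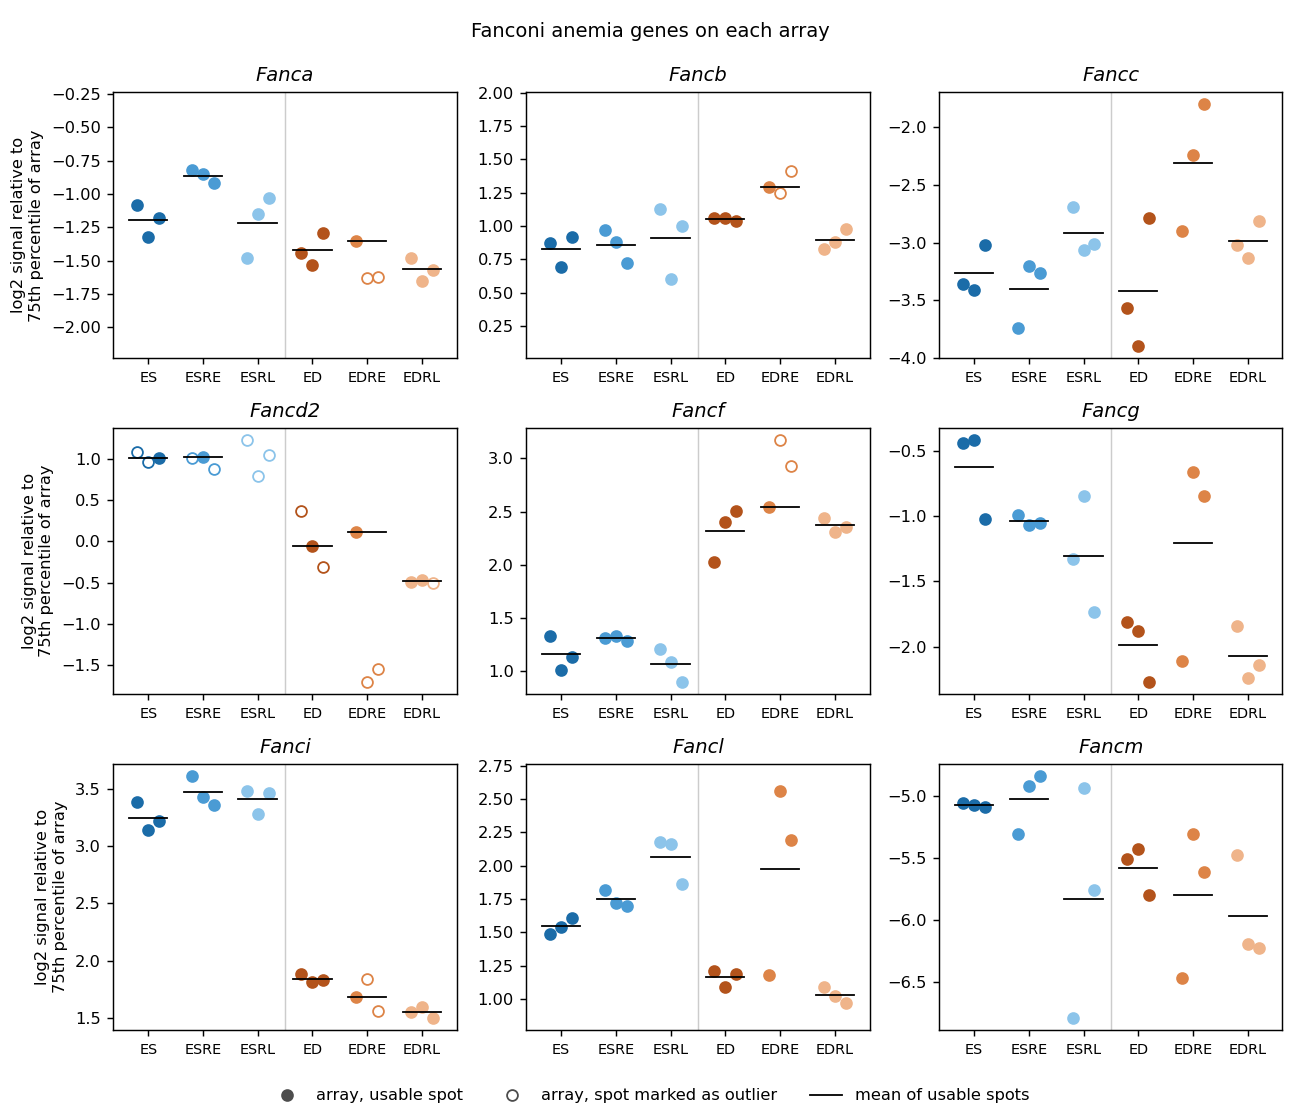
Log2 signal relative to the 75th percentile of all spots (vertical axis) on each of the 18 arrays, by group (horizontal axis), for the 9 Fanconi anemia genes with a probe. Filled points are usable spots, open points are spots marked as outliers and left out of the fits, and black lines are means of usable spots. Fanci lies between 3.14 and 3.61 on all arrays of ES cells and between 1.50 and 1.88 on usable arrays of ED cells, and Fancf shows the opposite order. Vertical scales differ between genes.

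Fancd2, the other subunit of the ID complex and the central ubiquitinated protein of the pathway, had few usable spots. Its level on the usable spot of ES (replicate 3) was 1.01 and on that of ED (replicate 2) was -0.06, a log2 change of -1.07 that did not pass (95% interval -2.21 to 0.08, adjusted p = 0.104). With outlier spots kept, Fancd2 was at 1.09, 0.97 and 1.01 in ES and at 0.37, -0.06 and -0.31 in ED cells. These groups did not overlap, and the change of -1.02 then passed (adjusted p = 0.024). Spots of ESRL were all marked as outliers, at 1.23, 0.79 and 1.05, and Fancd2 was not tested there. In EDRL it was at -0.49, -0.47 and -0.50, the last of them marked.

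The remaining core complex genes did not pass between ED and ES. Fancl, the ligase subunit, was at 1.49, 1.54 and 1.61 in ES and at 1.21, 1.09 and 1.19 in ED cells. Its groups did not overlap, and its change of -0.39 had a 95% interval of -0.92 to 0.15 (adjusted p = 0.225). The SD of Fancl was 0.06 in ES, 0.06 in ED and 0.71 in EDRE, which enters the same fit. Among 12 other ways of processing, listed below, Fancl passed in 4, each time lower in ED cells. Fanca, which forms a subcomplex with Fancg, was at -1.08, -1.32 and -1.18 in ES and at -1.44, -1.53 and -1.29 in ED cells, with a change of -0.23 (95% interval -0.56 to 0.10, adjusted p = 0.240). Fancb, the subunit that dimerizes within the catalytic module, was at 0.87, 0.69 and 0.92 in ES and at 1.06, 1.06 and 1.04 in ED cells. Its change of 0.23 (95% interval -0.11 to 0.58, adjusted p = 0.257) was matched in sign by its other probe, at 0.33 (adjusted p = 0.166).

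Fancc, which forms a subcomplex with Fance and Fancf, was at -3.36, -3.41 and -3.02 in ES and at -3.57, -3.90 and -2.79 in ED cells, and the groups overlapped. Its probes differed in sign, at -0.16 (95% interval -0.79 to 0.48, adjusted p = 0.711) and 0.37 (adjusted p = 0.379). Fancm was the dimmest member, with processed signals of 85.7 to 105 units in ES and 62.4 to 93.9 units in ED cells. Its level of -5.06, -5.07 and -5.09 in ES was above the -5.51, -5.43 and -5.80 in ED cells, with a change of -0.50 (95% interval -1.34 to 0.33, adjusted p = 0.312). Of the 8 members with every spot of ED and ES usable, 6 did not overlap between the groups (2 higher and 4 lower), where 71.2% of all such probes did not (29% higher and 42.3% lower).

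The scaling set the zero of these changes. Setting each array to its median moved the median change of all probes from -0.19 to 0.46 and the share of probes passing from 19.8% higher and 32.1% lower to 35.4% higher and 21.0% lower. With that scaling 5 of 9 members passed, where 56.3% of all probes did. Fancf (1.80), Fancb (0.87) and Fanca (0.41) were higher and Fanci (-0.76) and Fancg (-0.72) lower, so that Fanca turned its direction. These scalings differ by a constant on each array, and after the median of all probes was subtracted they gave nearly equal changes (1.35 and 1.34 for Fancf, -1.22 under both for Fanci). Quantile normalization reshapes each array and did not. It gave changes of 1.12 for Fancf, -1.46 for Fanci, -1.19 for Fancg, 0.17 for Fancb and -0.05 for Fanca, which became 0.90, -1.68, -1.41, -0.05 and -0.27 relative to the median of all probes (0.22). With each array set to its median, Fancc, Fancl and Fancm changed sign without passing.

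**Figure D2:**
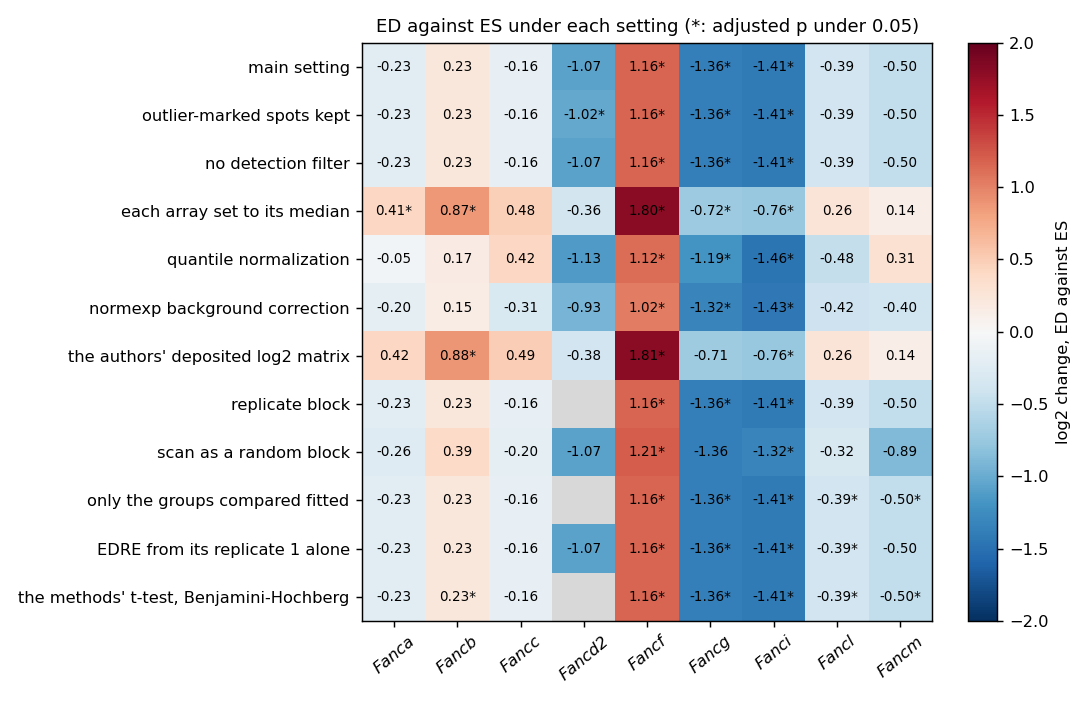
Log2 change between ED and ES cells (colour and printed value) of the 9 Fanconi anemia genes (columns) under the main setting and 11 other settings (rows), with an asterisk for an adjusted p under 0.05 and grey where the gene was not tested. Fancf is higher and Fanci lower with an asterisk in every setting shown, whereas Fanca runs from -0.26 to 0.42.

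Proteins around the core and ID complexes were taken from a list of 9 genes, of which 7 were on the array and 5 could be tested between ED and ES. All 5 passed, 4 lower and 1 higher, with a median change of -1.40, where 51.9% of all probes passed with a median of -0.19. Faap24, which binds DNA together with Fancm, fell by 2.10 on the log2 scale (adjusted p = 2.89e-07), from -1.75 ± 0.13 in ES to -3.85 ± 0.19 in ED cells (SD, n = 3 each). Ube2t, the ubiquitin-conjugating enzyme that works with Fancl, fell by 1.60 (adjusted p = 1.27e-06), from 4.42, 4.20 and 4.47 in ES to 2.63, 2.73 and 2.95 in ED cells. Neither gene overlapped between the groups. Cenps, a histone-fold partner of Fancm, fell by 1.40 (adjusted p = 0.00207), and Faap100, which joins Fancb and Fancl in the catalytic module, fell by 0.89 (adjusted p = 0.0470).

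Usp1, the deubiquitinase that takes ubiquitin off Fancd2, moved the other way. It was at 3.30, 3.26 and 3.23 in ES and at 3.88, 3.96 and 4.02 in ED cells, a rise of 0.69 ± 0.17 (SE, adjusted p = 0.00424). Cenpx and Wdr48 had no usable spot in ES, and Faap20 and Fan1 had no probe named for them. With each array set to its median, 3 of the 5 passed (Faap24 and Ube2t lower, Usp1 higher), where 56.3% of all probes did. With scan as a random block 2 passed (Faap24 and Ube2t), where 26% of all probes did.

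FA genes that act after the ID complex were taken from a list of which 9 are described, all on the array and tested. Counts and medians of this list are over these 9 alone. Of them 7 were lower and 1 higher in ED cells, with a median of -0.80, where 32.1% of all probes were lower and 19.8% higher. Mad2l2, a subunit of the translesion polymerase zeta and of shieldin, fell by 2.11 (adjusted p = 2.81e-06), from 3.21, 3.08 and 3.03 in ES to 0.86, 0.94 and 1.20 in ED cells. Palb2, which joins Brca1 to Brca2, fell by 1.13 (adjusted p = 0.00453), and Brca1 itself by 1.09 (adjusted p = 1.10e-05). The other members of this list that were lower ranged from -0.90 to -0.52.

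Brip1, a helicase bound by Brca1, was the gene of this list that rose (1.02, adjusted p = 0.00135). It was at -1.04, -0.96 and -1.08 in ES and at 0.16, -0.02 and -0.16 in ED cells. Xrcc2 (0.21, with 1 usable ES spot) did not pass. With each array set to its median 3 genes of the list passed (Mad2l2 lower, Brip1 and Xrcc2 higher), where 56.3% of all probes did. With scan as a random block 4 passed, all lower, where 26% of all probes passed (16% lower).

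Replication genes were set beside the members since FA repair acts at forks. Of 13 tested between ED and ES, 5 passed, 2 lower and 3 higher, with a median of -0.02, where 51.9% of all probes passed. Ccne1, the cyclin of S phase entry, fell by 3.27 (adjusted p = 8.60e-08) and Mcm2, a subunit of the replicative helicase, by 1.08 (adjusted p = 3.37e-05). Mki67, a marker of cycling cells, rose by 1.02 (adjusted p = 0.00147), Tyms by 0.84 (adjusted p = 0.00462) and the cyclin Ccna2 by 0.80 (adjusted p = 0.00109). The part of proliferation in the FA gene differences was not tested.

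**Figure D3:**
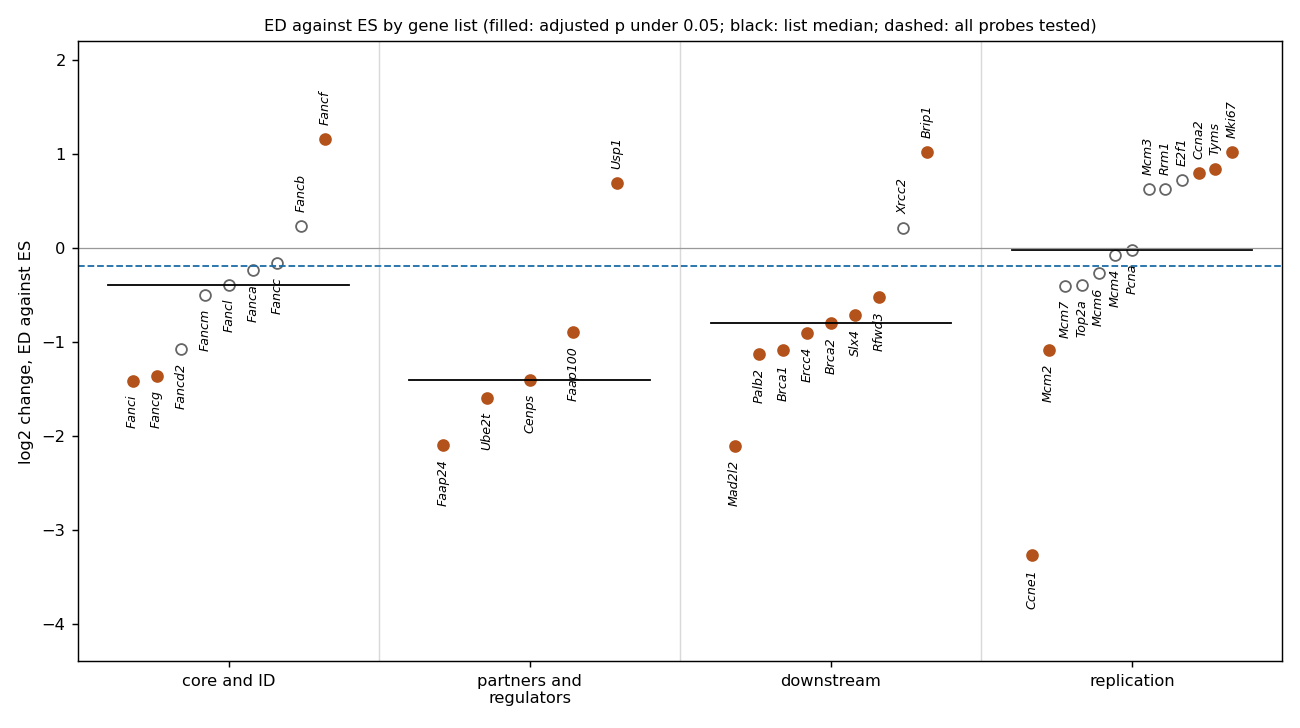
Log2 change between ED and ES cells (vertical axis) for every tested gene of the core and ID complexes (9), their partners and regulators (5), the downstream FA genes (9) and replication genes (13). Filled points passed at an adjusted p under 0.05, black lines are list medians (-0.39, -1.40, -0.80 and -0.02) and the dashed line is the median of all probes tested (-0.19).

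The next comparisons asked whether IR changed FA gene expression in either cell type. Known p53 targets were set beside the members as genes that IR is known to induce. Mdm2, the ubiquitin ligase of p53, rose by 0.87 in ESRL (adjusted p = 0.00387) and by 1.39 in EDRL (adjusted p = 0.000109). Of 8 such targets on the array, 2 of 7 tested rose in ESRL and 4 of 8 in EDRL, where 1.75% and 1.74% of all probes rose. In ESRE 0 of 7 rose (1 had an unadjusted limma p under 0.05) and in EDRE 2 of 8, where 0.38% and 3.76% of all probes rose. Trp53inp1, a stress-induced partner of p53, rose in ESRL (1.15), EDRE (1.17) and EDRL (2.22). The antiproliferative gene Btg2 rose in EDRE (1.87) and EDRL (2.18), and the cyclin Ccng1 in EDRL (1.61). Btg2 was at -4.84 in EDRE replicate 1 and at -4.31 and -3.22 in the dim replicates 2 and 3. On replicate 2 it was not well above background. The median of the targets was 1.32 in EDRL but -0.37 in ESRL, where all probes had a median of -0.16. In ESRL the cell cycle inhibitor Cdkn1a was at -0.73 (adjusted p = 0.150), the kinase Plk2 at -0.85 (adjusted p = 0.152), Sesn2 at -0.96 (adjusted p = 0.177) and Btg2 at -0.37 (adjusted p = 0.665). None of these passed, and the first 3 had an unadjusted limma p under 0.05. The lower values lay on ESRL replicates 1 and 3. In replicate 2 Plk2 (1.04), Sesn2 (-4.31) and Btg2 (-3.57) were above all ES arrays, and Cdkn1a (-2.11) was within the ES range. Sesn2 was not well above background on ESRL replicate 1.

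In ES cells at 15 min, 0 of 9 members passed, where 0.563% of all probes did. Changes ranged from -0.41 for Fancg to 0.33 for Fanca, and Fanca was the 1 member with an unadjusted limma p under 0.05, as 9.45% of all probes had (adjusted p = 0.528). Fanca stood at -0.82, -0.85 and -0.92 in ESRE, above all ES arrays. Fancl was also above all ES arrays, at 1.82, 1.72 and 1.70 (change 0.20, 95% interval -0.34 to 0.74). Of 8 members with every spot usable, these 2 did not overlap with ES, where 35% of all such probes did not (14.1% higher). At 4 h, 0 of 8 members tested passed and 0 had an unadjusted limma p under 0.05, where 8.88% of all probes passed and 25% had such a p.

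Changes at 4 h in ES cells ran from -0.75 for Fancm to 0.52 for Fancl. Fancl was at 2.18, 2.16 and 1.86 in ESRL, above all ES arrays (95% interval -0.02 to 1.06, adjusted p = 0.218). Of 8 members with every spot usable, 1 (Fancl) did not overlap with ES, where 34.1% of all such probes did not (10.4% higher). Fancm was scattered, at -6.79, -4.94 and -5.76, and on ESRL replicate 1, the array with the lowest 75th percentile outside EDRE, it was not well above background. The probes of Fancc disagreed. The representative probe gave 0.34 (adjusted p = 0.528), and the other gave -1.78 (adjusted p = 0.00488), with levels of -4.94, -5.04 and -5.21 in ES and -7.52, -7.22 and -5.79 in ESRL. That probe was well above background on 1 of the 3 ESRL arrays.

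In ED cells at 15 min, 1 of 9 members passed, where 7.39% of all probes did (3.76% higher), and 3 had an unadjusted limma p under 0.05, where 26% of all probes did. This was Fancc, at -3.57, -3.90 and -2.79 in ED and at -2.90, -2.24 and -1.80 in EDRE. The groups overlapped, and the change of 1.11 ± 0.29 (SE, limma adjusted p = 0.0386) was not shared by the other Fancc probe, at -0.69 (adjusted p = 0.190). Fancl (0.82, adjusted p = 0.0576) and Fancg (0.78, adjusted p = 0.140) followed without passing.

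All 3 of these higher values lay on the dim EDRE replicates 2 and 3. Fancl was at 1.18 in EDRE replicate 1, within the ED range of 1.09 to 1.21, and at 2.56 and 2.19 in replicates 2 and 3. With replicate 1 as the only EDRE array the changes were 0.52 for Fancc, 0.02 for Fancl and -0.12 for Fancg, which are values of 1 array with no spread of its own. Without EDRE replicate 1 they were 1.40, 1.22 and 1.23 and all 3 passed (adjusted p = 0.00152, 4.81e-05 and 0.00159). Fancc passed in 6 of 18 fits that left out 1 array (0.85 to 1.42, adjusted p = 0.00152 to 0.164). With scan as a random block it was at 1.03 (adjusted p = 0.771). Fanca, Fancb, Fancd2, Fancf and Fanci were tested on EDRE replicate 1 alone, with changes of -0.16 for Fanci to 0.24 for Fancb. Of the ES markers, Pou5f1 (-1.68, adjusted p = 0.00634, well above background on 1 of 3 EDRE arrays) and Esrrb (-0.99, adjusted p = 0.0109) fell in EDRE, 2 of 6 tested, and their part in the Fancc result was not tested.

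In ED cells at 4 h, 0 of 9 members passed, where 2.39% of all probes did. Changes ran from -0.42 for Fancd2 to 0.43 for Fancc. Fanci was the 1 member with an unadjusted limma p under 0.05, as 13.9% of all probes had (adjusted p = 0.337). It was at 1.55, 1.60 and 1.50 in EDRL, below all ED arrays. Its change was -0.29 (95% interval -0.57 to -0.01). Fancb, at 0.83, 0.88 and 0.98, was also below all ED arrays. Of 8 members with every spot usable, these 2 did not overlap with ED, where 44.6% of all such probes did not (29.8% lower). Fancf was 0.05 apart from ED (95% interval -0.28 to 0.39) and Fancg -0.08 (95% interval -0.78 to 0.61).

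**Figure D4:**
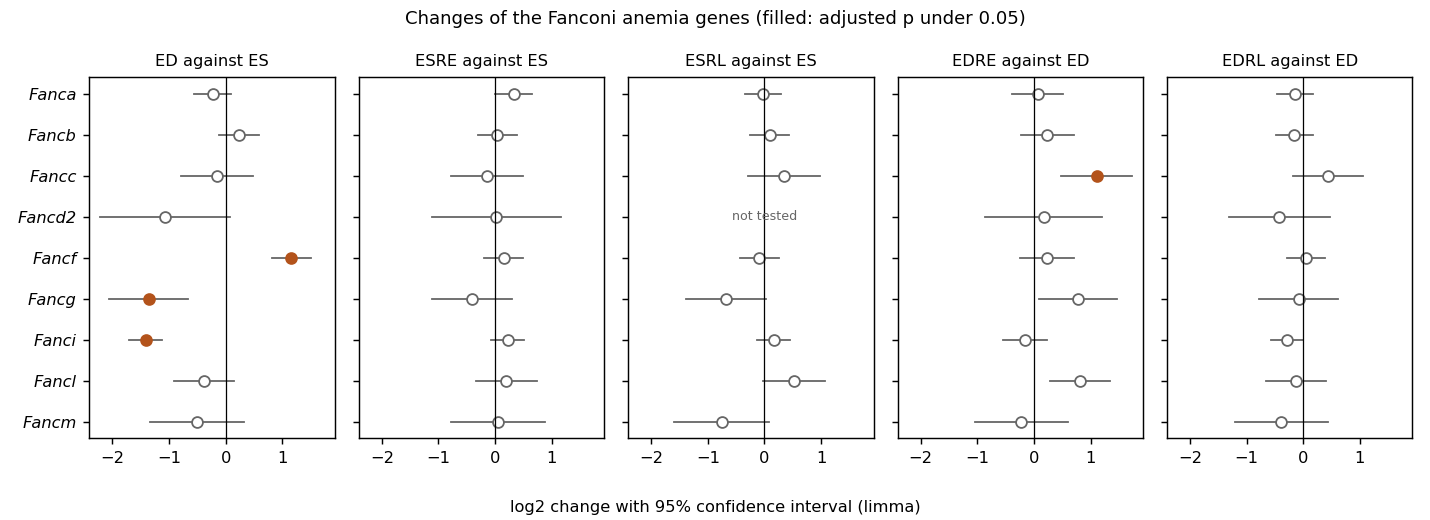
Log2 change with its 95% confidence interval from limma (horizontal axis) for the 9 Fanconi anemia genes (vertical axis) in ED against ES and in the 4 comparisons of irradiated with unirradiated cells. Filled points passed at an adjusted p under 0.05, which were Fancf, Fancg and Fanci between ED and ES and Fancc in EDRE.

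Whether the IR change differed between the cell types was tested as an interaction, the change in ES minus the change in ED cells. At 15 min 0 of 9 members passed (2% of all probes did) and at 4 h 0 of 8 (1.1% of all probes did), and 2 and 1 members had an unadjusted limma p under 0.05, as 18.7% and 15.2% of all probes had. These were Fancc (-1.24, adjusted p = 0.134) and Fancg (-1.19, adjusted p = 0.187) at 15 min, and Fanci (0.45, 95% interval 0.04 to 0.87, adjusted p = 0.287) at 4 h. Without EDRE replicate 1, Fancc, Fancg and Fancl passed at 15 min.

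Of the downstream FA genes, Ercc4, the nuclease partner of Slx4 in unhooking crosslinks, rose in EDRE by 0.47 (adjusted p = 0.0417). It was at -1.88, -2.02 and -1.76 in ED and at -1.32, -1.36 and -1.57 in EDRE. It was the 1 gene of 9 in this list to pass there, where 7.39% of all probes passed, and 0 of 9 passed in ESRE, ESRL or EDRL, where 1, 2 and 0 had an unadjusted limma p under 0.05. No gene among the partners and regulators passed after IR (0 of 5 tested in ESRE and ESRL, 0 of 7 in EDRE and EDRL). In these comparisons 2, 0, 0 and 2 of them had an unadjusted limma p under 0.05. Of all probes, 0.563%, 8.88%, 7.39% and 2.39% passed there, and 9.45%, 25%, 26% and 13.9% had such a p. Of partners and regulators with every spot usable, 5 of 5 in ESRE (3 higher) and 0 of 5 in ESRL did not overlap with ES. For all such probes these shares were 35% and 34.1%. In EDRE 0 of 2 and in EDRL 5 of 6, all lower, did not overlap with ED, where 25.4% and 44.6% did not (29.8% lower in EDRL). Of the replication genes, Ccne1 (1.22, adjusted p = 0.0205), Mcm6 (1.07, adjusted p = 0.0417) and Tyms (0.79, adjusted p = 0.0408) rose in EDRE, 3 of 14 tested, where 3.76% of all probes rose. With EDRE replicate 1 as its only array the change of Ercc4 was 0.56, against 0.37 for Ccne1, 0.17 for Mcm6 and 0.33 for Tyms. Over 18 fits that left out 1 array, Ercc4 passed in 4 (0.40 to 0.54), Mcm6 in 4, Tyms in 5 and Ccne1 in 14.

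The genes whose level over the 18 arrays was most like the mean of 8 members (all but Fancm) were Dnaaf5 (Pearson r = 0.975), Sdad1, Pcgf2, Phrf1 and Rita1 (r = 0.973 each), out of 10525 genes compared with outlier spots kept. This r is a description over arrays of both cell types and all treatments together, with no test. The mean of the members, each centred on its own mean, was 0.09 to 0.28 on arrays of ES cells and -0.39 to 0.14 on arrays of ED cells, with the highest values among the latter on the dim EDRE replicates 2 and 3 (0.14 and 0.10).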

How the data were processed

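Cy3-labeled RNA of each sample was hybridized to 1 Agilent array. The authors deposited intensity values from Agilent Feature Extraction (10.7.3.1 in the file headers, 9.1 in the submitters' processing notes), background-subtracted and not normalized between arrays, and a matrix of log2 values for 30133 probes, each set relative to about the median of its array, as tested on the files. Of 39448 spots, 1417 control spots and 200 unmarked negative controls were left out. RefSeq named 22201 of 37246 probes.

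Here, outlier-marked spots were left out and log2 signals set relative to the 75th percentile of each array. To be tested, a probe had to be well above background (50% or more of its spots) on every array of 1 or more of the groups compared. Means of the 6 groups were fitted in limma 3.58.1 (R 4.3.3) over the 18 arrays together. The procedure was tested on simulated data with independent noise on each array, which held no scan effect. Calls needed a Benjamini-Hochberg adjusted p under 0.05. Scan means arrays whose file headers share a scan identifier. All members were named, and of each list the 4 largest called changes in ED and, after IR, each called gene or the 4 largest. Usp1, Xrcc2, Ccna2, Thy1, Pax6, Sox2, Cdkn1a, Plk2 and Sesn2 were also named after their values were seen. Of the list of downstream FA genes, 2 genes are not reported here, and its counts and medians leave them out. Alternatives covered scaling, background correction, outlier spots, detection filter, scan, replicate number, arrays fitted, probe choice, threshold, the deposited matrix, the methods' t-test and leaving out each array. Members and gene lists were chosen with earlier results of these data known. The number of arrays limits the precision.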

Additional observations from a re-analysis of the deposited data

How the results depend on the processing

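Between ED and ES cells, Fancf, Fancg and Fanci passed in 18 of 18 fits that left out 1 array (3 to 4 members called, the fourth being Fancl without EDRE replicate 1, -0.39, adjusted p = 0.0191). Among 12 other settings Fancf and Fanci passed in all, and Fancg in all but scan as a random block (adjusted p = 0.151) and the authors' deposited matrix (-0.71, adjusted p = 0.0503). Fancb and Fancl passed in 4 of the 12 and Fancm in 3, each with the sign of the main setting. The count of members called was 5 of 9 with each array set to its median (56.3% of all probes), 5 of 8 with only the groups compared fitted (64.5%), and 6 of 8 by the methods' t-test before and after Benjamini-Hochberg adjustment (65.4% and 60.8%). Setting arrays to the median turned Fanca (0.41), Mcm4 (0.58), Pcna (0.63) and Rfwd3 (0.12), and the deposited matrix turned Pcna (0.63) and Rfwd3 (0.13). The median of all probes moved to 0.46 and 0.47 in these settings. In EDRE the count of 1 became 3 with each array set to its median (13.6% of all probes), 3 with normexp background correction (17.8%), 2 with outlier-marked spots kept (12.3%), 4 with the deposited matrix (18.5%), and 0 with EDRE replicate 1 alone (1 array, assumed to vary like the other groups), with only the groups compared fitted, with scan as a random block and by the methods' t-test with or without adjustment. Leaving out 1 array gave 0 to 3, with 3 (Fancc, Fancg and Fancl) without EDRE replicate 1, and Fancc was lost in 12 of these 18 fits, passing without ED replicate 3, EDRE replicate 1, ESRE replicate 1 or any 1 ESRL array. In EDRL the count of 0 became 1 (Fanci) by the methods' t-test after adjustment (12% of all probes) and 2 before it (32.3%). In ESRE it became 2 by the unadjusted t-test (23.9%). In ESRL it became 1 (Fancc) when any probe of a gene counted (8.88% of all probes). It also became 1 (Fancl) with each array set to its median (8.83%) and by the unadjusted t-test (18.3%). Leaving out 1 array gave 0 to 1 in ESRL, with 1 without EDRE replicate 1 (Fancl) or without ESRL replicate 2 (Fancm). For the interaction at 15 min it gave 0 to 3, with 3 without EDRE replicate 1, and at 4 h EDRE replicate 1 alone gave 1 (Fancl). Shares of all probes are not given for the fits that left out 1 array. The cause of these differences was not tested. The t-test was not run for interactions. Of 57 member changes that did not pass, 30 changed sign in at least 1 alternative.

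No pairing of samples by the replicate numbers of the labels was seen. Deviations from group means of arrays with the same number correlated at a median of -0.0113 (-0.393 to 0.297), with 7 of 45 pairs over 0.1. For arrays with different numbers the median was 0.00297 (-0.407 to 0.353), with 21 of 90 pairs over 0.1. With 3 arrays per group these values cannot show whether cultures were paired. With the replicate block 3 members were called between ED and ES, 1 in EDRE and 0 in every other comparison, the same counts as without it, and the count of all probes went from 1809 to 1281 in EDRE, 311 to 184 in the interaction at 4 h and 14858 to 14411 between ED and ES. With scan as a random block (consensus correlation 0.724), 0 probes were called in ESRE (365 at an unadjusted p under 0.05), against 157 without it, and 0 in the interaction at 15 min (495 at an unadjusted p under 0.05), against 563. Other counts of probes went from 14858 to 7450 between ED and ES, 2482 to 17 in ESRL, 1809 to 1 in EDRE, 608 to 61 in EDRL and 311 to 1 in the interaction at 4 h. Signal near background limited Fancm and the other Fancc probe, and outlier spots limited Fancd2.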
